A study of Mus musculus with 4 samples.

Results

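The cells described here are Crabp-low, Cdkn2a-positive cells of a mouse pancreatic tumour grown from the cell line KPC-4545, found in 1 of 4 droplet single-cell RNA libraries. KPC names a genetic mouse model of pancreatic cancer, and the labels do not spell out the alleles of the lines. Tumours were implanted in the pancreas of C57BL/6J mice, received no treatment and were taken on day 13. For each of the lines KPC-4545 and KPC-3403, the enriched library holds cells that a sort left after removing those stained for the red cell antigen TER119, the epithelial EPCAM, the endothelial CD31 or the leukocyte CD45, and the whole library holds the unsorted suspension. The sort was made to enrich fibroblasts. The labels name no animals, and each combination of line and preparation is 1 library, so cells of a library were its only units and no test between conditions was possible.

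A droplet barcode of the enriched KPC-4545 library was taken when it had at least 2000 unique molecular identifiers (UMIs, counted mRNA molecules), at least 250 genes, under 10% mitochondrial UMIs, at least 1 Cdkn2a UMI, no Ptprc and no Epcam UMI, under 20 UMIs per 10000 of Col1a1 plus Col3a1, and under 5 UMIs per 10000 of Crabp1, Crabp2 and Aqp5 together. This left 196 cells, 22.1% (95% exact Clopper-Pearson interval 19.4 to 24.9) of the 888 cells of that library that passed the quality limits and part of 4514 such cells in the 4 libraries. The rule itself was made from measured levels, so every gene value of these cells is a description. Levels are UMIs of a gene per 10000 UMIs, summed over the cells of a group. Intervals are 95% intervals of counting error only, since UMIs of 1 library say nothing of the spread between tumours.

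The genes of the rule have known roles. Cdkn2a (chr4:89274471-89294653, minus strand of mm10, by GENCODE vM21) encodes the Ink4a and Arf inhibitors of the cell cycle, is often lost in human pancreatic cancer and accumulates in cells whose Rb or p53 pathway is broken. Crabp1 and Crabp2 encode carriers that bind retinoic acid in the cytoplasm, and Aqp5 encodes a water channel of secretory epithelia. Pancreatic tumour cells can lose Epcam and junction genes while they keep simple keratins and gain vimentin, a state between epithelium and mesenchyme. Cancer-associated fibroblasts of the same tumours are marked by fibrillar collagens, Dcn and Pdgfra.

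Summed over the 196 cells, simple keratins were well above the level of the fibroblasts and most markers of stromal classes were near 0, as the tumour-like name asks, but keratin was uneven among the cells. The summed level of 12 epithelial marker genes was 24.0 UMIs per 10000 in the 196 cells and 1.65 in the 46 fibroblasts of the same library (cells at or above the collagen limit), and that of 10 fibroblast markers was 2.94 against 327. Col1a1 and Col3a1, which define both groups, are among those 10, and the other 8 markers summed to 0.985 against 129. In cells of the same library at or above the Crabp limit, described below as Crabp-high, these 8 summed to 0.306, less than in the Crabp-low cells. The epithelial sum had a cell median of 6.59 and a highest cell at 172, and 26 of 145 cells thinned to 10000 UMIs had no Krt8 or Krt18 UMI. Keratins made up nearly all of the epithelial sum: Krt7 (8.203), Krt18 (8.06), Krt8 (5.11) and Krt19 (1.84), against 0.456, 0.439, 0.386 and 0.246 in fibroblasts. The junction genes Cldn4, Cldn7 and Ocln had 4, 2 and 3 UMIs in the 196 cells, and Epcam was at 0 by the rule. Vim, the intermediate filament of mesenchymal cells, was at 51.0 in the Crabp-low cells, against 24.6 in fibroblasts. Of 10 fibroblast markers Lum and Fap were at 0, as were 4 of 10 mural, 4 of 6 mesothelial, 4 of 8 Schwann cell and 11 of 12 neuroendocrine markers. The mesothelial sum of 3.54 was almost all Msln (3.40), a gene that pancreatic tumour cells also express. Leukocyte markers summed to 0.0355 and erythroid markers to 0.00222.

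The rule did not use the sex chromosomes. Xist, the RNA that coats the inactive X chromosome of female cells, had 0 UMIs among the 4508036 UMIs of the Crabp-low cells, where 3 UMIs would be a level of 0.00665, and 4.44 per 10000 in fibroblasts. The Y-linked genes Ddx3y, Eif2s3y and Uty were also at 0 and Kdm5d had 1 UMI. Crabp-high cells of the same library, defined by the same rule but with 5 or more UMIs per 10000 of Crabp1, Crabp2 and Aqp5, had an Xist level of 0.00172. Keratin-positive cells of the enriched KPC-3403 library had 4.86. Of a list of 12 imprinted genes, Meg3, Grb10, Peg3, Ndn and Plagl1 were at 0 too, while fibroblasts had 7.48, 1.65, 0.193, 0.948 and 0.667. Igf2r, the gene of a receptor that clears IGF2, was at 1.09 in the Crabp-low cells against 1.12 in fibroblasts, and the other 6 were at 0.0732 or less in the Crabp-low cells.

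Cdkn2a itself was strong in most of the cells. Of 196 cells 131 had 10 or more Cdkn2a UMIs, 20 had 4 to 9, 14 had 3, 13 had 2 and 18 had the single UMI that the rule asks for. The level per cell was lowest at 0.632, had a median of 10.6 and reached 45.1 UMIs per 10000. The summed level was 14.4 (14.1 to 14.8) in the Crabp-low cells, 13.4 (13.3 to 13.6) in the 622 Crabp-high cells and 0.474 in fibroblasts. Barcodes with at most 100 UMIs, which hold free RNA, had 6.13 Cdkn2a UMIs per 10000, and what part free RNA has in the cells with 1 or 2 UMIs was not tested. With every cell thinned to 2000 UMIs, 78.6% of Crabp-low cells, 89.1% of Crabp-high cells and 10.9% of fibroblasts had a Cdkn2a UMI. Cdkn2b, the neighbouring inhibitor gene, was at 1.91, against 1.55 in Crabp-high cells and 0.333 in fibroblasts.

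**Figure D1:**
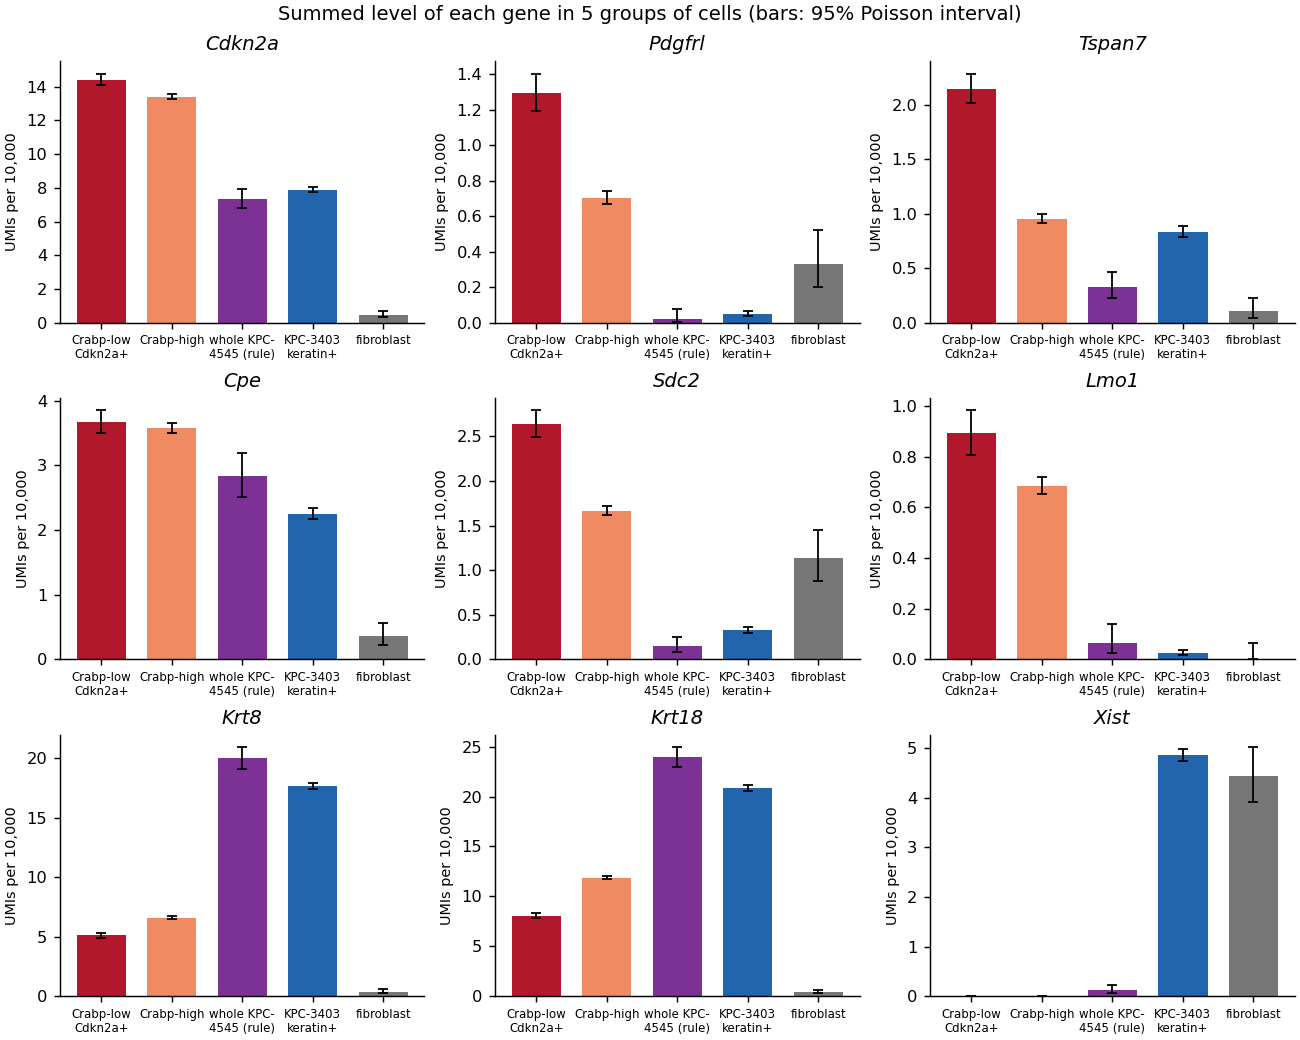
Summed level (UMIs per 10000, vertical axis from 0) of 9 genes in the 196 Crabp-low Cdkn2a-positive cells, the 622 Crabp-high cells, the 46 whole KPC-4545 cells that meet the rule at any Epcam count, the 623 keratin-positive enriched KPC-3403 cells and the 46 fibroblasts, with 95% Poisson intervals. Pdgfrl, Sdc2 and Lmo1 were above 0.5 in both enriched KPC-4545 tumour groups and at 0.325 or less in the KPC-3403 and whole KPC-4545 cells, and Xist was at 0.128 or less in the 3 KPC-4545 tumour groups.

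The limit of 5 cut through a continuous range. The values just inside it were 4.89, 4.93 and 4.97 UMIs per 10000 of Crabp1, Crabp2 and Aqp5, and those just outside were 5.06, 5.09 and 5.10. The collagen limit was cleaner, with 15.9, 15.9 and 17.7 inside and 20.7, 25.9 and 29.5 outside. Of the Crabp-low cells 25 had none of the Crabp and Aqp5 UMIs, 50 were above 0 and under 2, and 121 lay between 2 and 5 per 10000. Crabp2 and Aqp5 were still detected in 67.9% and 63.3% of the cells, at summed levels of 1.21 and 1.35, and Crabp1 in 12.2%, at 0.131. The cells were also shallower than their neighbours, with a median of 20310 UMIs (2109 to 73389) against 36461 in Crabp-high cells. Their median mitochondrial share was 2.80%, against 1.69%. Thinned to 2000 UMIs, both had about the same number of genes per cell, with medians of 1023 and 1013.

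Several genes changed with that sum on both sides of the limit as well as across it. Tspan7 was at 1.97, 2.40 and 2.07 UMIs per 10000 in Crabp-low bins of 0, above 0 to 2 and 2 to 5, at 1.34 in the next bin (5 to 8) and at 0.524 in cells at 30 or more, with its largest fall between neighbouring bins at the limit. Fn1, the fibronectin gene, ran from 16.8 in the bin of 0 to 14.3 in the bin of 2 to 5, 10.5 in that of 5 to 8 and 4.82 at the top. S100a4, a calcium-binding protein gene of motile cells, ran the opposite way, with 2.44, 4.87 and 7.96 in the Crabp-low bins, 9.94 in the next and 19.9 at the top. Wfdc2 and Mgp, which encode a secreted protease-inhibitor-like protein and an inhibitor of calcification, reached 32.8 and 66.8 in the top bin. Mgp was at 8.67 in the bin of 2 to 5 and 11.7 in the next. Wfdc2 was at 7.83 in the bin of 0, at 3.10 in that of above 0 to 2, below 8 in that of 2 to 5 and at 13.1 in the next, a larger fold step at the limit than between any later bins. Cpe stayed between 2.25 and 4.02 in all 9 bins. The 25 cells of the bin of 0 stood apart in the sums of several genes. Krt8 was at 15.4, Krt18 at 22.4, Clu at 62.7 and Neat1 at 57.5. These cells had a median of only 5046 UMIs. Their median of Krt8 plus Krt18 per cell was 3.11, the lowest of the 9 bins. One cell gave 20.0% of all Clu UMIs of the Crabp-low cells.

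**Figure D2:**
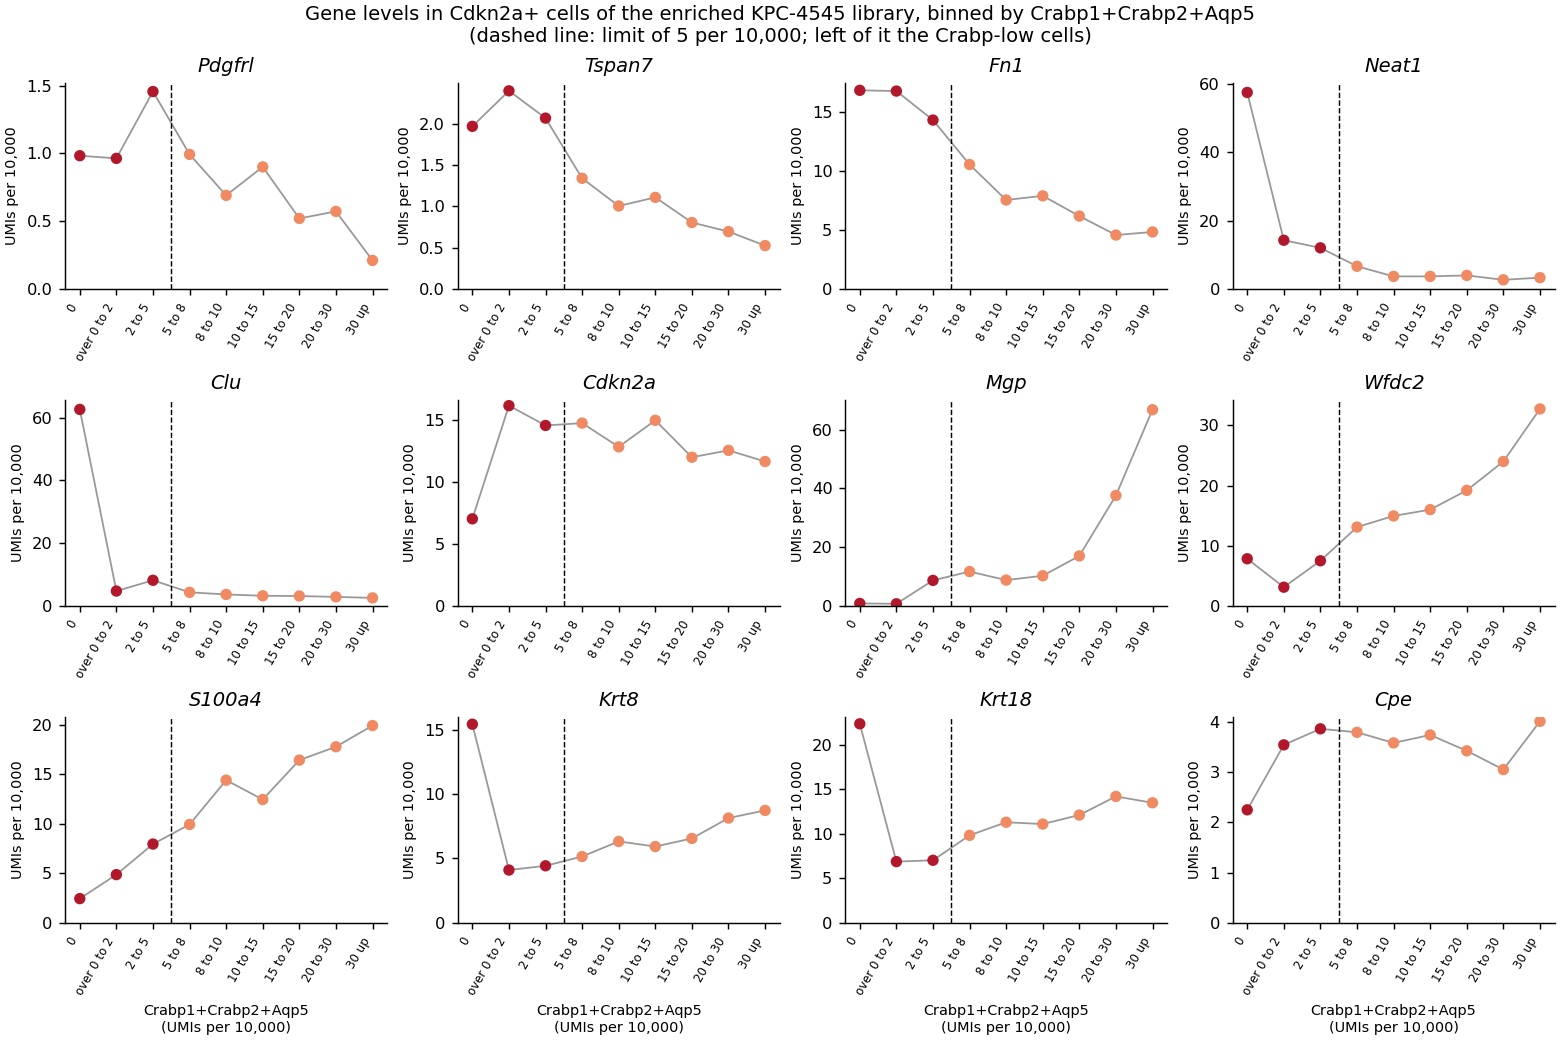
Summed level (UMIs per 10000, vertical axis from 0) of 12 genes in 9 bins of Cdkn2a-positive, collagen-low, enriched KPC-4545 cells ordered by Crabp1, Crabp2 and Aqp5 together (UMIs per 10000), with the limit of 5 as a dashed line and Crabp-low bins left of it. Tspan7 and Fn1 are lower and S100a4 and Wfdc2 higher right of the limit than left of it, with further change toward the top bin, while Clu and Neat1 are high mainly in the bin of 0.

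Of the 5 other genes given as markers, Tspan7 and Pdgfrl differed most from the Crabp-high cells, and Cpe did not differ beyond counting error. Tspan7 (chrX:10485158-10596605, plus strand), a tetraspanin that organises membrane proteins, had a cell median of 1.17 and a highest cell at 18.9. Its summed level was 2.15 (2.01 to 2.28) in Crabp-low and 0.953 (0.914 to 0.993) in Crabp-high cells, a ratio of 2.25 (2.09 to 2.43). Pdgfrl (chr8:40926212-40990785, plus strand), which encodes a secreted protein related to the PDGF receptor, was found in 45.9% of the cells with a highest cell at 21.8, and its median cell had none. The summed Pdgfrl level was 1.30 in Crabp-low and 0.705 in Crabp-high cells (ratio 1.84, 1.67 to 2.02). Sdc2, a heparan sulfate proteoglycan of the cell surface, was at 2.64 against 1.67 (ratio 1.58, 1.48 to 1.69). Lmo1, a LIM-only cofactor of transcription, was at 0.892 against 0.686 (ratio 1.30, 1.16 to 1.45), but the share of cells with an Lmo1 UMI after thinning to 2000 UMIs was 12.2% against 13.0%. Cpe, carboxypeptidase E of prohormone processing, was at 3.67 against 3.57 (ratio 1.03, 0.974 to 1.08).

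Pdgfrl and Tspan7 were found in more of the Crabp-low cells at equal depth too. Among cells with at least 10000 UMIs, thinned to that number, 42.8% of 145 Crabp-low cells and 26.6% of 580 Crabp-high cells had a Pdgfrl UMI, and 66.9% and 44.3% had a Tspan7 UMI. This step left out 51 Crabp-low and 42 Crabp-high cells. Sdc2 (75.9% and 74.5%) and Cpe (86.2% and 88.4%) were nearly level between the groups by that count.

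Over all genes the Crabp-low and Crabp-high cells were close. Of 1634 genes with a level of at least 1 per 10000 in either group, 42 (2.57%) were more than 2-fold higher and 19 (1.16%) more than 2-fold lower in the Crabp-low cells, and the median log2 ratio was -0.08. Of the 42, 26 reached that level in the Crabp-low cells only, and of the 19, 10 reached it in the Crabp-high cells only. Such a gene could come out only higher in the group that admitted it, in the lists of this comparison too. Of 1331 genes that reached it in both groups, 16 were more than 2-fold higher and 9 lower. With TMM scaling, which moves every log2 ratio by -0.23, the counts over the 1634 genes were 18 higher and 30 lower. The choice of scaling therefore sets which direction holds more genes. Of the 42 genes higher, 17 were also more than 2-fold higher when a subgroup of 49 cells with high Neat1, described further on, was left out, and 17 of the 19 lower genes stayed lower.

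Among the genes higher in the Crabp-low cells, 9 of 15 named ones kept their side of 2-fold without that subgroup. Clu, an extracellular chaperone, was at 11.1 in Crabp-low and 3.31 in Crabp-high cells (log2 ratio 1.74, and 1.87 without the subgroup). Its median cell was at 2.66 and its highest at 191. Sprr1a, a cornified envelope gene induced in injured epithelium, was at 5.14 against 1.53 (log2 ratio 1.75). Cxcl16, a membrane-bound chemokine, was at 1.57 against 0.451 (log2 ratio 1.80). Sox9, the transcription factor of pancreatic ducts and progenitors, was at 1.95 against 0.720 (log2 ratio 1.43, and 1.52 without the subgroup). The extracellular matrix gene Fbln2 (5.83 against 2.46), the YAP target Ankrd1 (1.61 against 0.678), the membrane protein gene Basp1 (1.06 against 0.430), the stress-induced Ndrg1 (1.91 against 0.574) and the oxidase gene Ero1l of the endoplasmic reticulum (1.18 against 0.487) were the others. Of these 9 genes, only Clu, Sprr1a and Fbln2 reached a level of 1 in both groups.

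The other 6 named genes came within 2-fold without the subgroup. It was clustered on the same genes, so leaving it out had to lower genes that led it, such as Neat1 and Gm26917. Only Crabp-low cells were left out. A joint cluster of 89 cells with high Neat1, described further on, held 52 Crabp-low cells, and its Crabp-high cells stayed in the comparison. Neat1, the nuclear RNA scaffold of paraspeckles, was at 15.8 in Crabp-low and 3.997 in Crabp-high cells (log2 ratio 1.98), and its log2 ratio was 0.22 without the 49 cells. Gm26917 had a log2 ratio of 2.19 with and 0.52 without them, Gm14636 1.62 and 0.16, the cytoskeletal linker gene Dst 1.29 and 0.02, and the TGF-beta feedback genes Smad7 1.52 and 0.86 and Skil 1.27 and 0.40. The nuclear RNA Malat1, at 105.3 against 51.5, belonged to the 10 highest genes of the Crabp-low cells together with Rplp0 (113), Gm42418 (91.1) and S100a6 (86.7).

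The 15 named genes lower in the Crabp-low cells were led by Krt6a, Cryab, Mgp and Wfdc2. Mgp was at 6.05 in Crabp-low and 21.7 in Crabp-high cells (log2 ratio -1.84), and 1 cell gave 25.2% of its UMIs. Wfdc2 was at 6.38 against 18.95 (log2 ratio -1.57). Krt6a, a keratin of activated squamous cells, was at 0.228 against 1.07, and the small heat shock gene Cryab at 0.331 against 1.42. S100a4 was at 6.77 against 14.6, Eno3, a muscle-type enolase, at 2.52 against 5.65, Aldh3a1, an aldehyde dehydrogenase, at 0.799 against 2.31, and Pthlh, the parathyroid hormone-related peptide, at 0.694 against 1.75. The others were Gm4316, Avpi1, Gatm, Stmn2, Ly6a, Fdps and Gchfr, with log2 ratios of -1.55 to -1.09. Without the Neat1-high cells Fdps and Ly6a came to log2 ratios of -0.998 and -0.996 and the others stayed below -1. Simple keratins were lower but within 2-fold by total UMIs: Krt8 at 5.11 against 6.61, Krt18 at 8.06 against 11.9 and Krt7 at 8.203 against 14.1. With TMM scaling 1 of the 4 measured epithelial markers was more than 2-fold lower. The range over cells was wide, with medians of 1.19 for Krt8 and 2.56 for Krt18 and highest cells at 40.5 and 85.5.

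**Figure D3:**
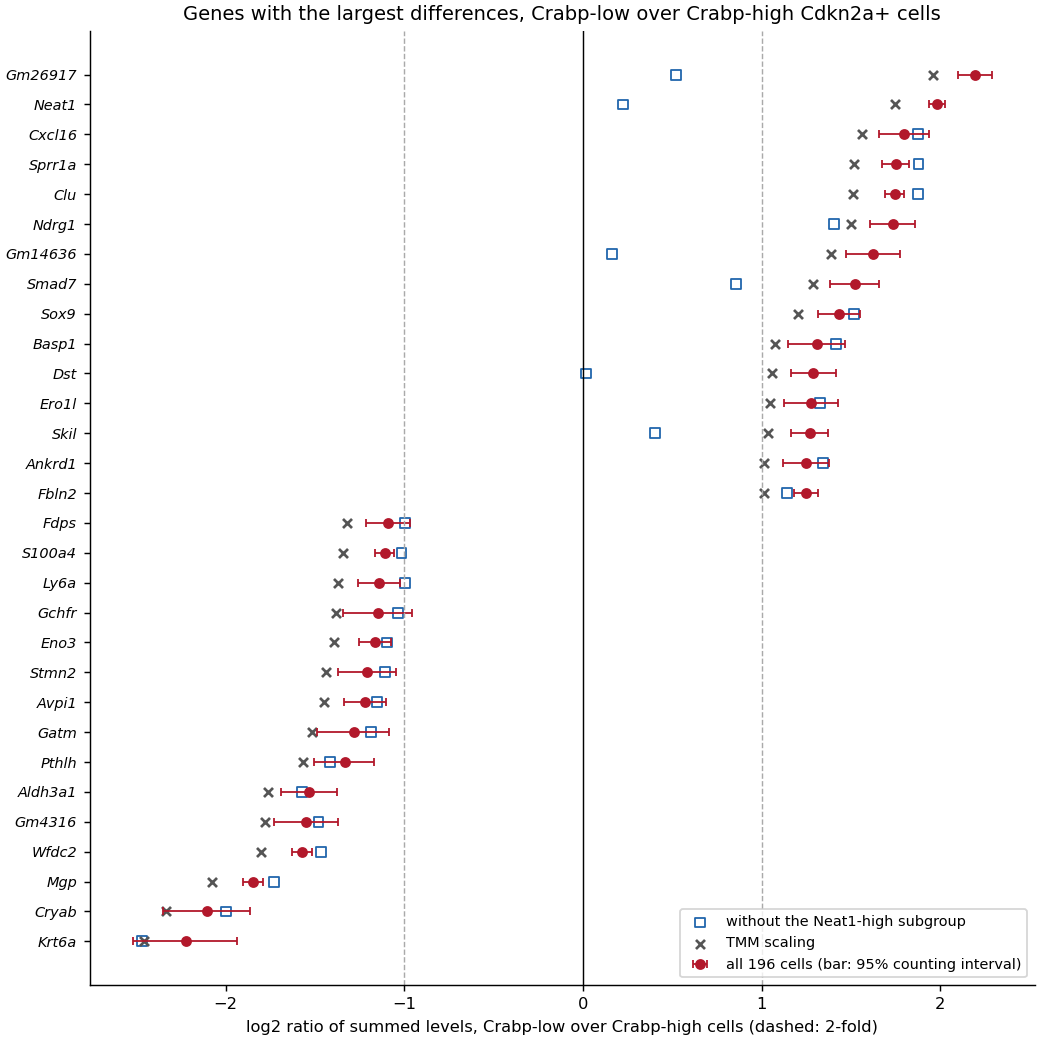
Log2 ratio of summed levels, Crabp-low over Crabp-high cells of the enriched KPC-4545 library, for 15 genes higher and 15 genes lower, with 95% counting intervals, beside the ratio without the Neat1-high subgroup and with TMM scaling. Neat1, Gm26917, Gm14636, Dst, Skil and Smad7 come within 2-fold without the subgroup, while without it Clu, Sprr1a, Cxcl16 and Sox9 do not move toward 0.

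Functional lists mostly lay near the median of all genes in the same comparison. Of the 17 measured immediate early genes, which respond within minutes to growth factors and to tissue dissociation, 3 (Btg2, Klf4 and Fosb) were more than 2-fold higher and none more than 2-fold lower in the Crabp-low cells, against 2.57% of all genes higher. None of the 17 passed 2-fold with TMM scaling, and none did without the Neat1-high subgroup. Their median log2 ratio was 0.49 (0.25 with TMM scaling), against -0.08 for all genes. Fos was at 43.4 against 32.9, Junb at 36.0 against 26.0, Jun at 35.2 against 25.2 and Egr1 at 17.5 against 10.5. Of 7 hypoxia and glycolysis genes, the glucose transporter gene Slc2a1 (1.25 against 0.549) and the mitophagy gene Bnip3 (2.77 against 1.22) passed 2-fold, with a list median of 0.26 (0.03 with TMM scaling), and none of the 7 did with TMM scaling. Without the Neat1-high subgroup 2 of the 7 were more than 2-fold higher. Slc2a1 reached a level of 1 in the Crabp-low cells only. Heat shock genes had a median of -0.27 with none of 12 past 2-fold. None of 8 interferon and MHC class I genes passed it by total UMIs, and 1 was more than 2-fold lower with TMM scaling. Their median changed sign, 0.16 by total UMIs and -0.08 with TMM scaling. Of 10 chemokine and cytokine genes only Cxcl16 did. Proliferation genes had a median of -0.58 with none of 5 past 2-fold, and Ube2c was at 2.39 against 3.57.

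Lineage and matrix lists gave single genes. Of 12 pancreatic and endodermal transcription factors only Sox9 reached a level of 1 per 10000. Pdx1 was at 0.202, Gata4 and Gata6 at 0.162 and 0.155, and Nr5a2, Ptf1a and Onecut1, which acinar or early progenitor cells use, were at 0. Of 4 measured mesenchymal transition genes Fn1 was more than 2-fold higher (15.1 against 7.09) and S100a4 more than 2-fold lower, while Vim was at 51.0 against 66.5. The log2 ratio of Fn1 was 1.09, but 0.86 with TMM scaling and 0.97 without the Neat1-high subgroup, both within 2-fold. Zeb1 and Zeb2, repressors of epithelial genes, were at 0.677 and 0.657, against 0.399 and 0.348. Both were thus under a level of 1 in both groups, and among the Crabp-low subgroups they reached it in the Neat1-high one only. Among 6 measured matrix genes Col5a1 (1.02 against 0.505) passed 2-fold, and none of the list did with TMM scaling or without the Neat1-high subgroup. Col6a1 was at 2.27 against 1.46. Of the retinoid list, Crabp1 and Crabp2 were lower by the rule. The retinoic acid receptor genes Rara and Rarg were at 0.486 and 0.406 in the Crabp-low cells, against 0.343 and 0.378, and the retinoic acid-synthesising genes Aldh1a1, Aldh1a2 and Aldh1a3 had 6, 1 and 5 UMIs in the 196 cells. Among driver and cell-cycle brake genes none of 8 passed 2-fold by total UMIs. With TMM scaling 1 of the 8 was more than 2-fold lower, as was 1 without the Neat1-high subgroup. Trp53 was at 1.18 against 1.16, and Ccnd1, cyclin D1, was at 3.71 against 6.70. Of tetraspanins and heparan sulfate proteoglycans other than the given markers none passed 2-fold.

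The 196 cells fell into 4 subgroups by Leiden clustering, with 68, 55, 49 and 24 cells. Since the clusters were made from the same genes, their leading genes describe them and are not tests. The first subgroup of 68 cells was rich in Pdgfrl and poor in keratin. Pdgfrl was at 2.86 there, against 0.392 in the other Crabp-low cells, and was found in 91.2% of the 68 cells. Krt8 and Krt18 had a summed cell median of 0.875 in this subgroup, and 7.61, 3.86 and 17.8 in the others. Il33, an alarmin cytokine (3.03 against 0.399), the chemokine genes Cxcl5 (3.82 against 0.417), Cxcl3 (1.05 against 0.0595) and Ccl7 (2.18 against 0.389), the lysophosphatidic acid-producing enzyme gene Enpp2 (1.58 against 0.263) and Mgst1 (1.84 against 0.368) led with it. Bnip3 (5.50 against 1.19) and Isg15 (5.44 against 1.22) were also among the 10 leading genes, as was Cd74, with 87.6% of its UMIs from 1 cell. Col3a1, at 2.73, and Pdgfrb, at 0.526, were above the values of the other subgroups, yet Lum and Dcn were at 0 and 0.103.

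A gene that reaches a level of 1 in a single group had to come out higher there, so list counts below are over genes that reached it in both groups. Of 16 such immediate early genes 8 were more than 2-fold higher in the Pdgfrl-high subgroup than in the other Crabp-low cells. Of all 1255 such genes 66 were higher and 36 lower by that limit. Over the 1731 genes that reached the level in either group, 7.63% were higher and 6.59% lower. Junb was at 64.8, Fos at 63.5 and Egr1 at 29.2. Of 5 chemokine and cytokine genes 2, and 4 of 8 interferon and MHC class I genes, were more than 2-fold higher, with Cxcl1 at 41.5 against 11.9 and B2m at 29.7 against 13.3. The mitotic genes Birc5 and Top2a were at 0.0181 and 0.133, against 1.27 and 1.10. The 68 cells had a median of 23856.5 UMIs and 2.16% mitochondrial UMIs.

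The second subgroup of 55 cells kept keratins and carried most of the Clu. Clu was at 24.7, against 4.10 in the other Crabp-low cells, with 26.4% of its UMIs from 1 cell. Krt8 was at 9.02 against 3.10 and Krt18 at 12.9. Ifitm1 (8.08 against 1.89), the serine and folate pathway genes Psph (1.15 against 0.288) and Mthfd2 (1.23 against 0.496), and Ankrd1 (2.66 against 1.07) were further leading genes. Elf3 and Dcn also led, with 40.9% and 43.1% of their UMIs from 1 cell each. Background calls were 0.943% higher and 8.90% lower of 1697 genes. Of 1285 genes that reached a level of 1 in both groups, 8 were more than 2-fold higher and 45 lower. Of 16 immediate early genes 5, and 1 of 4 chemokine genes, were more than 2-fold lower, and Cdkn2a was at 18.5, the highest of the 4 subgroups.

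The third subgroup of 49 cells was shallow, rich in mitochondrial UMIs and rich in Neat1 and Malat1. Its median was 8721 UMIs and 7.89% mitochondrial UMIs. Neat1 was at 114, against 4.67 in the other Crabp-low cells, and was found in all 49 cells. Malat1 was at 549, Gm26917 at 27.6, and the myo-inositol transporter gene Slc5a3 (7.87 against 0.259) and the transcription factor gene Nfatc2 (4.30 against 0.0963) led with them. F830016B08Rik led by its ratio, with 96.8% of its UMIs from 1 cell. Rplp0, a ribosomal protein gene, was at 13.2, against 106, 141 and 131 in the Pdgfrl-high, the keratin and Clu, and the cycling subgroups, and Cdkn2a was at 3.38. Background calls were 47.2% higher and 31.0% lower of 2669 genes, but 1211 of these reached a level of 1 in this subgroup only. Of 799 genes that reached it in both groups, 155 were more than 2-fold higher and 264 lower. Dst was at 10.2, Skil at 12.1, Smad7 at 6.39 and Col12a1 at 2.27. The part of depth and mitochondrial share in these values was not tested.

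The last subgroup of 24 cells was led by genes of the cell cycle, and is called cycling here. Ube2c was at 10.2, against 0.539 in the other Crabp-low cells, Pclaf at 4.06 against 0.115, Birc5 at 3.60 against 0.146 and Ccna2 at 3.52 against 0.157. Of 13 measured proliferation genes 12 reached a level of 1 in these cells only, so their count is not read, and the other, Hmgb2, was at 8.26 against 1.22. Background calls were 11.8% higher and 12.2% lower of 1866 genes. Of 1205 genes that reached a level of 1 in both groups, 68 were more than 2-fold higher and 71 lower. These were the deepest Crabp-low cells, with a median of 41210.5 UMIs, and had the highest median of Krt8 plus Krt18. Pdgfrl was at 0.0230, Sdc2 at 1.14 and Tspan7 at 0.736, and Sox9, at 0.357, was at its lowest. Of 13 immediate early genes 10 were more than 2-fold lower.

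**Figure D4:**
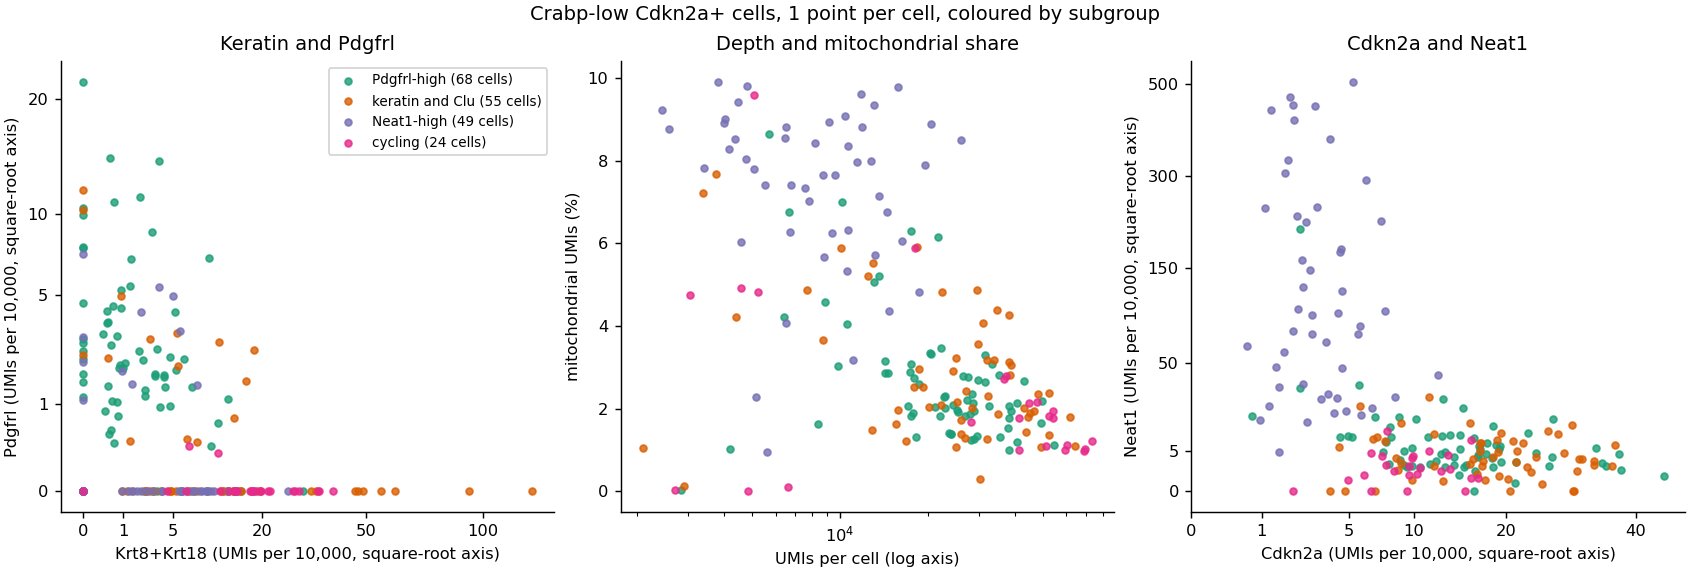
The 196 Crabp-low cells, 1 point each, coloured by subgroup (68, 55, 49 and 24 cells), as Krt8 plus Krt18 against Pdgfrl and Cdkn2a against Neat1 (UMIs per 10000, square-root axes) and as UMIs per cell (log axis) against mitochondrial share (percent). Pdgfrl is found mostly at low keratin, and the Neat1-high cells lie at low depth, high mitochondrial share and low Cdkn2a.

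Cells with Pdgfrl had less keratin than cells without it, in both Crabp classes. Among Crabp-low cells thinned to 10000 UMIs, the median of Krt8 and Krt18 was 1 UMI in the 62 cells with a Pdgfrl UMI and 10 UMIs in the 83 cells without. In Crabp-high cells treated alike it was 3 UMIs in 154 cells and 19 UMIs in 426 cells. Of 26 Crabp-low cells with no keratin UMI, 22 had Pdgfrl. By subgroup, a Pdgfrl UMI was found in 80.0%, 18.8%, 20.0% and 5.88% of thinned cells of the Pdgfrl-high, the keratin and Clu, the Neat1-high and the cycling subgroups.

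Clustered together with the Crabp-high cells and without the genes of the rule, the Crabp-low cells did not form a group of their own. They appeared in all 8 joint clusters, with 72, 21, 10, 52, 15, 1, 22 and 3 cells. A cluster of 241 cells led by Ccn5 and Pdgfrl was 29.9% Crabp-low and held 62 of the 68 Pdgfrl-high cells. A cluster of 89 cells with Neat1 and Nfatc2 among its leading genes was 58.4% Crabp-low and held all 49 cells of the third subgroup, and a cluster of 177 cycling cells was 11.9% Crabp-low. The highest Crabp-low share, 61.1%, was in a cluster of 36 cells led by Dmbt1, Lgals4, Gm10800, Dcn, Gap43, Bgn, Onecut2, Selenop, Clu and Sprr1a, of which Dcn is a fibroblast marker. Its 22 Crabp-low cells all came from the second subgroup. In that cluster Cdkn2a was at 21.0, Lmo1 at 1.78 and Mgp at 0.244.

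Low Crabp and Aqp5 was the usual state of Cdkn2a-positive cells in the other libraries and the rarer one here. At any Epcam count, 24.1% (21.2 to 27.1) of 823 Cdkn2a-positive, collagen-low cells of the enriched KPC-4545 library were under the limit of 5. It was 90.2% (78.6 to 96.7) of 51 such cells among whole KPC-4545 cells, 589 of 620 in enriched KPC-3403 and 97.2% of 217 in whole KPC-3403. The summed level of Crabp1, Crabp2 and Aqp5 in these cells was 14.2, against 1.77, 1.29 and 0.704. In cells with at least 20000 UMIs the shares were 16.3% of 615, 18 of 20, 91.7% of 265 and 94.4% of 89. The 2 KPC-4545 libraries thus differed within 1 line, and with 1 library each the sort, the animal and the tumour cannot be told apart.

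**Figure D5:**
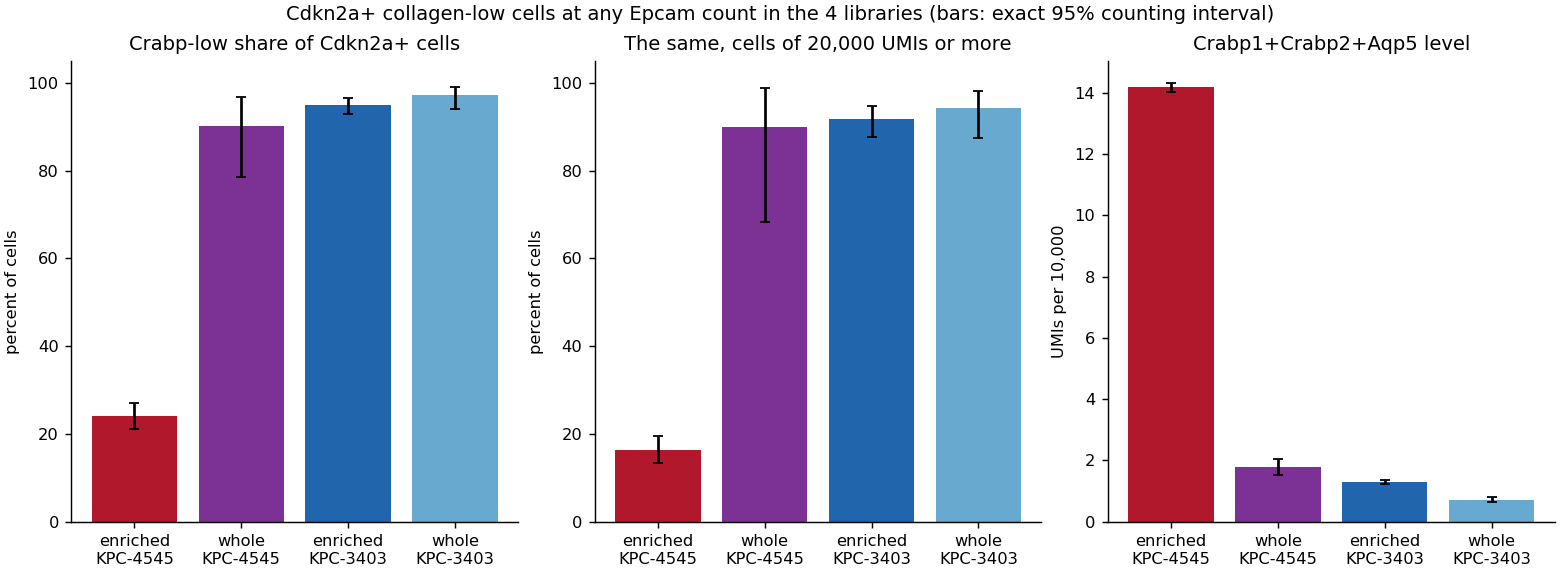
Share (percent) of Cdkn2a-positive collagen-low cells under 5 UMIs per 10000 of Crabp1, Crabp2 and Aqp5 in the 4 libraries, for all cells and for cells with at least 20000 UMIs, and the summed level of these 3 genes (UMIs per 10000), with exact 95% counting intervals. The enriched KPC-4545 library, at 24.1%, stands below the other 3, at 90.2% to 97.2%.

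The same rule found 30 cells in the whole KPC-4545 library, and 46 at any Epcam count, of which 34.8% had Epcam. Of 9 measured epithelial markers 5 (Elf3, Muc1, Cdh1, Cldn7 and Epcam, the last at 0 by the rule) reached a level of 1 in the whole library cells only. Of the other 4, Krt8, Krt18 and Krt19 were more than 2-fold lower in the enriched Crabp-low cells and Krt7 was not (background 17.9% higher and 7.53% lower of 1686 genes). Of 1068 genes that reached a level of 1 in both groups, 76 were more than 2-fold higher and 41 lower. Krt8 was at 5.11 in the Crabp-low cells against 20.0 in the whole library, Cldn7 at 0.00444 against 2.88, Cdh1 at 0.304 against 2.68 and Muc1 at 0.124 against 2.75. The goblet and gastric-type genes Tff1, Agr2 and Phgr1 were at 17.3, 1.29 and 3.97 in the whole library cells, and had 1, 0 and 1 UMIs in the 196 cells. Some of the given markers were far higher in the Crabp-low cells than in the whole library cells. Pdgfrl was at 1.30 against 0.0213, Sdc2 at 2.64 against 0.149, Lmo1 at 0.892 against 0.0640 and Tspan7 at 2.15 against 0.330. Cpe, at 3.67 against 2.84, and Cdkn2a, at 14.4 against 7.34, differed by less than 2-fold. Bgn, a matrix proteoglycan gene, Inhba, an activin subunit gene, Ccn1, a secreted matricellular protein gene, Sod3, an antioxidant enzyme gene, and Id3, a gene of an inhibitor of transcription factors, were at 1.62, 1.67, 12.3, 3.64 and 5.91 in the Crabp-low cells, against 0.0107, 0.0746, 0.448, 0.0213 and 0.0320.

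RNA of other cells and dissociation genes differed in the same comparison. Haemoglobin RNA was present in the whole library cells, with Hbb-bs at 38.9 against 0.00222 in the Crabp-low cells, and leukocyte markers summed to 1.23 against 0.0355. All 13 immediate early genes that reached a level of 1 in both groups were more than 2-fold higher in the Crabp-low cells, as were 5 of 9 such heat shock genes. Jun was at 35.2 against 2.70. Preparation and tumour cannot be told apart here. With TMM scaling, which moved log2 ratios by -0.21, 254 genes were more than 2-fold higher and 169 lower, against 302 and 127 by total UMIs.

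Against the 623 keratin-positive cells of the enriched KPC-3403 library, where line and library cannot be told apart, 13.2% of 1686 genes were more than 2-fold higher and 7.83% lower in the Crabp-low cells. With TMM scaling, a shift of -0.30, the counts were 124 higher and 210 lower, against 223 and 132 by total UMIs. Pdgfrl was at 1.30 in the Crabp-low cells against 0.0502 in KPC-3403 cells, Lmo1 at 0.892 against 0.0267, Lsp1, an actin-binding protein gene, at 1.62 against 0.0526, Sod3, the extracellular superoxide dismutase gene, at 3.64 against 0.182, the secreted protease gene Htra1 at 5.56 against 0.312, and Cxcl1, a neutrophil-attracting chemokine, at 22.8 against 1.01. Col8a1, Fgfr1 and Ttll5 had log2 ratios of 4.20, 3.58 and 3.49. In the other direction stood Xist, Tff1, Tm4sf4, Saa3, Crisp1, Slpi, Agr2 and Ptgis, with 15 UMIs of Slpi and at most 1 UMI of each other gene in the Crabp-low cells. Slpi, a secreted protease inhibitor, was at 9.12 in KPC-3403 cells. Of 4 epithelial markers that reached a level of 1 in both groups, Krt19, Krt8 and Krt18 were more than 2-fold lower in the Crabp-low cells, the last pair having been used to choose the KPC-3403 cells. Of all 1108 genes that reached it in both groups, 63 were more than 2-fold higher and 36 lower. Sox9 was at 1.95 against 3.06.

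Against fibroblasts of the same library, 16.2% of 1967 genes were more than 2-fold higher and 20.0% lower in the Crabp-low cells. Of 1071 genes that reached a level of 1 in both groups, 104 were more than 2-fold higher and 72 lower. Sprr1a, at 5.14, had no UMI in fibroblasts and was at least 97.5-fold higher, set against 3 UMIs in that group. Areg, an EGF family ligand, was at 2.56 against 0.0526, Hmga1, a chromatin protein of embryonic and tumour cells, at 3.58 against 0.211, Prkg2 at 1.14 against 0.0175 and Cystm1 at 2.06 against 0.105. Serping1, Clec3b, Mmp3, Aldh1a2 and Saa3, genes of fibroblasts and mesothelium, had 6, 3, 2, 1 and 1 UMIs in the 196 cells and levels of 29.2, 14.4, 10.2, 8.25 and 7.88 in fibroblasts. Of 14 measured matrix genes 8 reached a level of 1 in fibroblasts only, and 5 of the other 6 were more than 2-fold lower in the Crabp-low cells. Of 5 hypoxia and glycolysis genes that reached it in both groups 4 were more than 2-fold higher, with Pgk1 at 11.7 against 1.51. Fn1 (15.1 against 19.2) and Sdc4 (5.11 against 4.95) were within 2-fold of the fibroblast level.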

How the data were processed

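Tables of UMI counts per gene and barcode, for all barcodes, were deposited by the authors. Per the submitters' processing notes they were made with Cell Ranger 6.1.1 on mm10, and per the labels' protocols with 5' chemistry. The counts are not normalized. The libraries held 47207893 UMIs (enriched) and 5746733 UMIs (whole) for KPC-4545, and 51450719 UMIs (enriched) and 13990046 UMIs (whole) for KPC-3403, over 32285 genes. Cells were filtered as in the rule, with no removal of doublets or of free RNA. Scrublet scores marked 13 cells, 2 of them Crabp-low, at an expected number of 6. Of the Crabp-low barcodes 2 also occurred in the unsorted KPC-3403 library and 0 elsewhere. Levels are summed UMIs per 10000 with exact Poisson intervals, and ratios have exact conditional binomial 95% intervals. Genes needed a level of 1 in either group, and zeros were set to a floor of 3 UMIs for the group in ratios. The interval code was tested on simulated data.

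Subgroups used scanpy 1.11.5 and leidenalg 0.10.2 (1000 variable genes, 20 components, 15 neighbours, resolution 0.5, seed 0). TMM factors came from edgeR 4.0.16, used for scaling only. Named genes are those of the rule, the given markers, the 10 highest genes, up to 15 genes per direction against the Crabp-high cells and 8 per direction elsewhere by the counting bound nearest to no difference, up to 6 per list, and 10 per subgroup. Gene coordinates are from GENCODE vM21. The cells, lists and rules were chosen with earlier results of these data known. The joint clustering, the thinning to 10000 UMIs, the cells of at least 20000 UMIs and the comparison without the Neat1-high cells were added after seeing the data. Gene symbols shared by near-identical copies (Hspa1a and Hspa1b, H2-K1 and H2-D1, haemoglobin genes, Krt6a) are uncertain, since counting can split their reads. Values of some genes that the rule names are not reported here.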

Additional observations from a re-analysis of the deposited data

How the results depend on the processing

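No paired analysis was possible because each group is 1 library and no test was run. The number of Crabp-low cells was 75 with a limit of 2 and 390 with a limit of 10 for Crabp1, Crabp2 and Aqp5, and 386 with a mitochondrial limit of 20%. Against the Crabp-high cells, main counts were 42 genes more than 2-fold higher and 19 lower. They were 113 and 42 with the limit of 2, and 11 and 8 with the limit of 10. Genes higher numbered 19 with a mitochondrial limit of 5%, 223 with 20%, 155 as means over cells and 18 without the Neat1-high subgroup, with the lower count within 1.5 times in each. TMM scaling gave 16 and 33 when the level limit was applied to the scaled levels (1643 genes) and 18 and 30 over the 1634 genes of the main counts. There were, with no filter on low genes, 4617 and 398, and with thinning to 2000 UMIs, 174 and 39. In the unfiltered and thinned settings fewer UMIs stand behind each gene. The causes of the other shifts were not tested. Subgroups numbered 7 at resolution 1. For 42 single-gene log2 ratios, 630 values under these settings gave 355 inside the counting interval, 275 outside it and 0 of opposite sign to a called ratio. Neat1 ranged from 0.22 to 3.12 and Dst from 0.02 to 2.03. Depth limits genes under a level of 1, and the whole KPC-4545 values rest on 46 cells.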

Other observations

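Medians of the log2 ratio by chromosome were taken after the data had been seen, over genes with a level of at least 0.3 in either group, relative to the median of all genes in the same comparison. Against fibroblasts of the enriched KPC-4545 library, chromosome 14 was at -0.66 in the Crabp-low cells (162 genes), -0.83 in the Crabp-high cells, -0.15 in the whole KPC-4545 cells that meet the rule at any Epcam count and -0.23 in the keratin-positive KPC-3403 cells. Chromosome 3 was at 0.44 (320 genes), 0.59, 0.36 and -0.16 in the same order. Chromosome 9 was at -0.53, -0.51, -0.67 and -0.44. Some other chromosomes were shifted in the same direction in all 4 comparisons. Chromosome 8 was at 0.36, 0.44, 0.55 and 0.29, chromosome 19 at 0.34, 0.53, 0.46 and 0.34, and chromosome 16 at -0.41, -0.39, -0.41 and -0.61. Others changed sign between comparisons, such as chromosome 1 at -0.14, -0.32, -0.03 and 0.19 and chromosome X at 0.27, 0.34, 0.20 and -0.14. All 4 comparisons share the 46 fibroblasts. Set directly against the whole KPC-4545 cells, the Crabp-low cells were at -0.58 on chromosome 14 (133 genes), and set against the Crabp-high cells at 0.11 (113 genes). DNA was not measured.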
